A study of Mus musculus with 2 samples.

Results

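PD-1, the receptor encoded by Pdcd1, and its 2 ligands PD-L1 (Cd274) and PD-L2 (Pdcd1lg2) were followed across the immune cells of MC38 tumours. These 3 genes were chosen by symbol, with earlier results of these data known, from the 32285 genes listed for each library. MC38, a mouse colon carcinoma line, had been implanted in female C57BL/6 mice, and the mice were treated with vehicle or with LC427, a code name for which no structure is given here. Tumours were taken at day 14, CD45-positive cells were collected on magnetic beads after removal of dead cells, and their RNA was counted with the 10x Genomics 5′ v2 kit. The series title concerns LRBA and degradation of CTLA4, another inhibitory receptor of T cells. The number of mice behind a library was not given in the sources used here. With 1 library from vehicle and 1 from LC427, the groups could not be tested against each other. Every interval below covers counting error only, and how far mice of a group differ is not known.

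PD-1 is an inhibitory receptor that T cells display after antigen stimulation, and on chronically stimulated T cells it stays high. Binding of either ligand recruits the phosphatase SHP-2 to the receptor and dampens signalling from the T cell receptor and CD28. PD-L1 is induced by interferon-gamma on many cell types, whereas PD-L2 is restricted mainly to dendritic cells and macrophages, where IL-4 and STAT6 induce it. PD-L1 also binds CD80 on the same cell, and PD-L2 also binds RGMb.

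The vehicle library gave 5025 cells with a median of 3450 UMIs (unique molecules) a cell, and the LC427 library 6008 cells with a median of 2315. Levels are therefore given as UMIs per 1000000 UMIs of a class (CPM). Shares of cells are also given at an equal depth, with 1000 UMIs drawn from every cell. Of the cell barcodes, 47 occurred in both libraries, 0.935% of the vehicle and 0.782% of the LC427 cells. Cells were clustered without the 3 genes and named "-like" by marker genes. Each UMI counts 1 captured 5′ end, so a CPM does not grow with transcript length. The Pdcd1 gene lies at chr1:94038305-94052553 on the minus strand of GRCm38. Cd274 (chr19:29367455-29388095) and Pdcd1lg2 (chr19:29410919-29471161) are neighbours on the plus strand, 22823 bases apart. An annotated antisense gene lies inside Cd274 and another overlaps Pdcd1lg2. Whether the counting used strand was not given in the sources used here, so reads of those genes cannot be told apart from reads of the ligands.

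Pdcd1 was a T-cell transcript in both libraries, and its level in CD8-like cells was close in vehicle and LC427. CD8-like cells held 228 Pdcd1 UMIs in vehicle and 147 in LC427, which came to 154 CPM (135 to 175) and 141 CPM (119 to 166). The ratio of LC427 to vehicle was 0.916 (95% interval 0.739 to 1.13), so an average difference was not detectable at this depth, and the interval does not reach a 1.5-fold change either way. These cells made up 6.85% and 7.89% of all cells but carried 71.2% and 62.3% of all Pdcd1 UMIs. All T-like cells together carried 85.3% and 69.9%. Barcodes with both T-cell and myeloid genes, 105 in vehicle and 301 in LC427, carried 6.9% (22 UMIs) and 19.9% (47 UMIs). At 1.5-fold or more, 14.4% of the 8064 genes measured in the class were higher in LC427 and 10.4% were lower. None of the 3 genes was among either set in CD8-like cells, though Cd274 (log2 ratio -0.57) passed 1.5-fold lower relative to the median of all genes (-0.64).

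The share of CD8-like cells with a Pdcd1 UMI looked very different before depth was matched. It was 38.1% of 344 vehicle cells and 22.8% of 474 LC427 cells. The median depth of those cells was 3315 UMIs in vehicle and 1729.5 in LC427. After thinning, the shares were 12.8% (9.45 to 16.8) and 12.2% (9.42 to 15.5). For comparison, 2 of 3499 and 5 of 4149 monocyte/macrophage-like cells held a Pdcd1 UMI, at median depths of 3574 and 2254 UMIs. The unthinned gap of the CD8-like cells thus stood beside a gap in depth and was not present at equal depth.

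**Figure D1:**
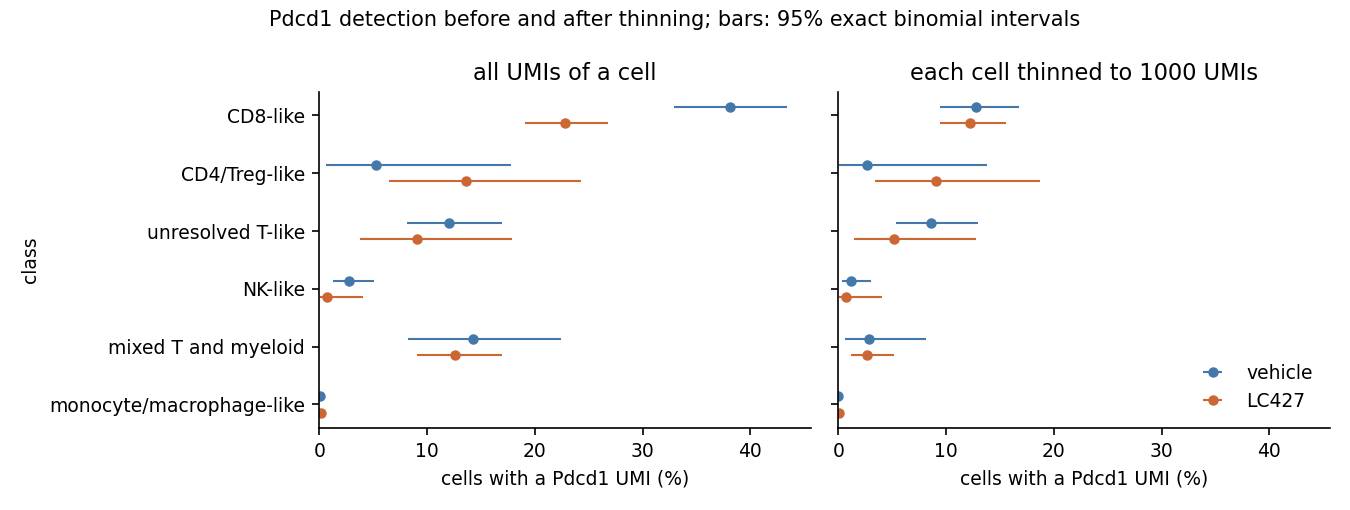
Share of cells with a Pdcd1 UMI (%, x axis) per class (y axis), with all UMIs (left) and with each cell thinned to 1000 UMIs (right), for the vehicle and the LC427 library. Bars are exact 95% binomial intervals. For CD8-like cells the points stand at 38.1% and 22.8% on the left and at 12.8% and 12.2% on the right.

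Most CD8-like cells of the libraries came from different clusters. A cycling cluster led by Cenpf and Top2a held 136 vehicle and 173 LC427 cells, and Pdcd1 was at 128 and 127 CPM there (ratio 0.991, 0.714 to 1.37). A cluster led by Ifng, the gene of interferon-gamma, and Cd8a held 58.7% of the vehicle CD8-like cells but 13.1% of those of LC427. It had the highest Pdcd1 of the 3, with 195 and 218 CPM (ratio 1.12, 0.736 to 1.66). It also held Cd4 UMIs, at 124 and 192 CPM beside 628 and 470 CPM of Cd8a. The remaining cluster had 6 vehicle and 239 LC427 cells, with Pdcd1 at 130 CPM in LC427 and a single UMI in vehicle. Cd8a and Cd8b1 led it over the other lymphocyte classes, but within CD8-like cells it was led by Gm26917, Slx1b and Pf4. Pf4 also led macrophage-like clusters. Its LC427 cells had a median of 1500 UMIs. Ptprc was found in 71.4% of its cells, against 91.3% in the cycling and 88.6% in the Ifng cluster. In both clusters with over 50 cells in each library, Pdcd1 differed by less than its counting interval. The B-cell markers summed to 41.2 CPM in vehicle and 446 CPM in LC427 CD8-like cells, with none of the 6 in 10% of cells, and their part in these values was not tested.

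The other lymphocyte classes had lower Pdcd1 values, though in LC427 the interval of CD4/Treg-like cells overlaps that of CD8-like cells. In CD4/Treg-like cells, led by Maf, Foxp3 and Ctla4, it was 38.9 CPM in vehicle (5 UMIs in 38 cells) and 88.4 CPM in LC427 (10 UMIs in 66 cells), with intervals that overlap widely (12.6 to 90.8 and 42.4 to 163). T-like cells of unresolved type had 85.7 and 55.0 CPM (ratio 0.642, 0.259 to 1.39). Within them, a cluster of 52 and 26 cells led by S100a9 and S100a8, genes of neutrophils and monocytes, reached 221 CPM in vehicle (22 UMIs) and 114 CPM in LC427 (5 UMIs). That cluster also had Cd8a at 531 and 571 CPM and Cd3e at 642 and 640 CPM. In CD8-like cells Cd8a was at 521 and 550 CPM. Over all T-like cells the ratio was 0.965 (0.79 to 1.17), and Pdcd1 was outside both the 12.4% of genes that were higher there and the 9.65% that were lower. NK-like cells had much less, with 12 Pdcd1 UMIs in 9 of 330 vehicle cells and 2 UMIs in 1 of 134 LC427 cells, or 8.44 CPM (4.36 to 14.7) and 7.11 CPM (0.86 to 25.7). Droplets of 10 to 100 UMIs hold free RNA, and as much of it in every NK-like cell would give 0.151 and 0.0375 Pdcd1 UMIs. The NK-like ratio of 0.842 (0.0915 to 3.78) ran from 0.529 to 3.36 under other settings, above 1 in 5 of 9. In vehicle the order was CD8-like, unresolved T-like, CD4/Treg-like and mixed T and myeloid barcodes (34.2 CPM), and in LC427 the middle ones changed places. The intervals of CD4/Treg-like and unresolved T-like cells overlap in both libraries, so their order is not resolved.

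Outside the lymphocytes Pdcd1 was counted in few cells. Monocyte/macrophage-like cells had 2 and 5 UMIs, where free RNA would give 1.60 and 1.16, and conventional dendritic cell (DC)-like cells had 1 UMI in each library. Plasmacytoid DC-like cells had 2 UMIs in 43 vehicle cells and 1 in 51 LC427 cells, or 11.9 and 8.94 CPM, near the NK-like level. Mature regulatory DC-like cells, led by the migration genes Ccr7 and Fscn1, had 4 Pdcd1 UMIs in 1 of 134 vehicle cells and 14 UMIs in 11 of 162 LC427 cells, or 7.11 and 29.0 CPM (ratio 4.08, 1.28 to 17). Barcodes with T-cell genes were also more common there in LC427: the 7 T-cell markers summed to 201 CPM in vehicle and 388 CPM in LC427. In LC427, 5 of the 21 cells with UMIs of 2 or more of these markers had Pdcd1, against 5 of the 129 cells with none, and the part of T-cell RNA in the ratio was not tested. After thinning, 0 of 134 vehicle cells and 1.85% (0.384 to 5.32) of LC427 cells had a Pdcd1 UMI, and 0 of 134 allows a share of up to 2.24%.

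**Figure D2:**
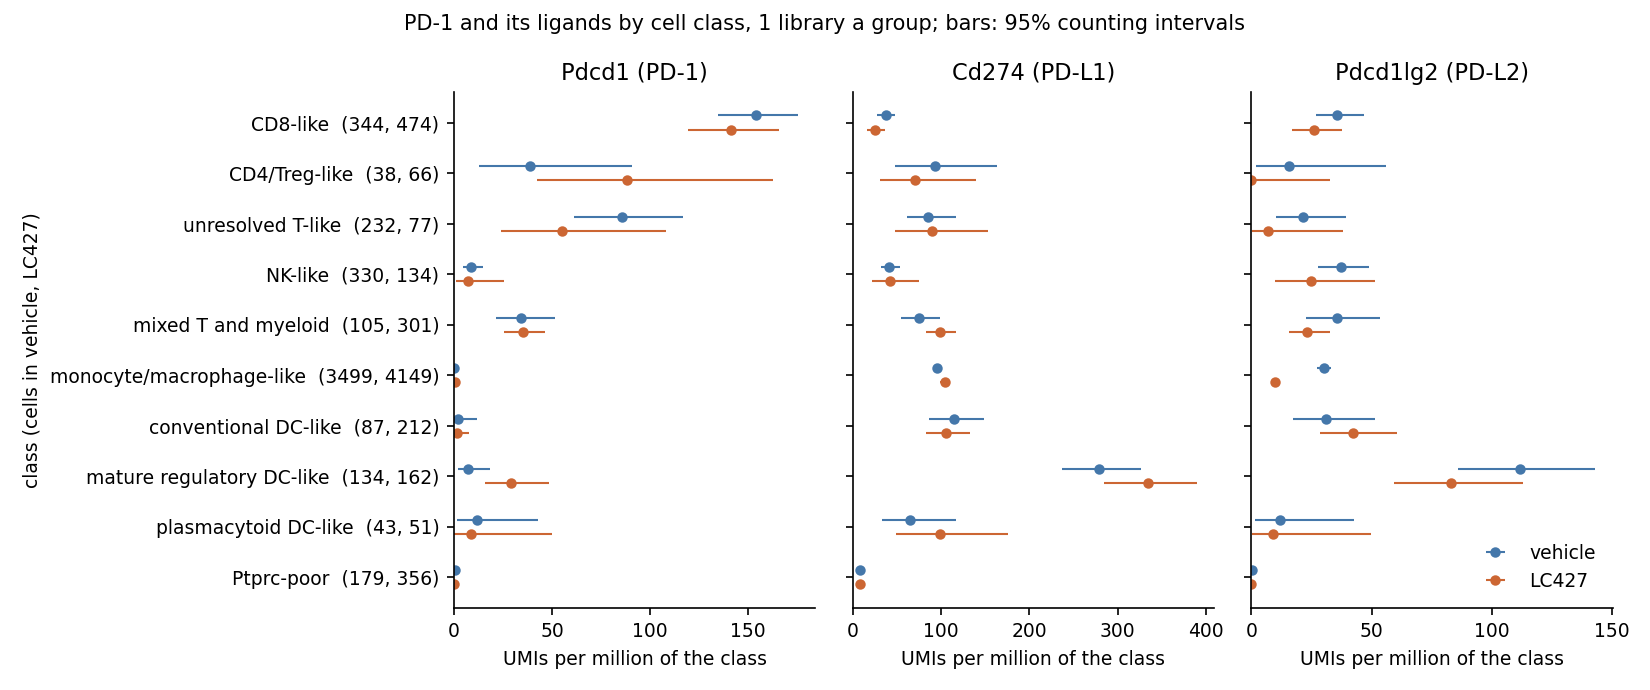
Level of Pdcd1, Cd274 and Pdcd1lg2 (CPM of the class, x axes) in each class (y axis, with the cells of vehicle and LC427), 1 library a group. Bars are exact 95% Poisson intervals. Pdcd1 is highest in CD8-like cells (154 and 141 CPM), both ligands are highest in mature regulatory DC-like cells, and Pdcd1lg2 of monocyte/macrophage-like cells stands at 30.1 CPM in vehicle and 9.76 CPM in LC427.

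Genes known to regulate Pdcd1 transcription were mostly level or lower in LC427 CD8-like cells, while Pdcd1 itself was close in both libraries. Of the 19 regulators listed, 17 had the 20 UMIs needed, and 6 were lower by 1.5-fold or more with none higher. Over all genes of the class 10.4% were lower and 14.4% higher. Id2 (ratio 1.46, 1.30 to 1.63) and Tox (1.46, 1.06 to 2.01) were above 1 but within 1.5-fold. The median log2 ratio of the 17 was -0.29, against 0.07 for all 8064 genes. This list was chosen with earlier results of these data known. The lowest was Nr4a3, an immediate-early nuclear receptor gene induced by T cell receptor signalling, at 241 CPM in vehicle and 86.5 CPM in LC427 (ratio 0.359, 0.282 to 0.454). Nr4a1, of the same family, stood at 164 and 95.1 CPM. Tbx21, encoding T-bet, which can repress Pdcd1, had 79.1 and 37.5 CPM, and Nfatc1, a calcium-activated factor that binds the Pdcd1 locus, 103 and 63.4 CPM. Nr4a3 was likewise lower in NK-like cells (ratio 0.354, 0.206 to 0.571) and monocyte/macrophage-like cells (0.432, 0.384 to 0.485), which have little or no Pdcd1, but not in mature regulatory DC-like cells (1.19, 1.03 to 1.38).

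Genes acting after the receptor showed no shared direction in CD8-like cells, where 14.4% of all 8064 genes were higher and 10.4% lower. The few genes named here are given beside those shares and are not read as a result about the pathway. Of the 12 PD-1 signalling genes, Cd247, the zeta chain of the T cell receptor complex, was lower (86.5 and 39.4 CPM) and Pag1, an adaptor that holds the inhibitory kinase Csk, was higher (28.4 and 46.1 CPM). The other 10 stayed within 1.5-fold. Of 4 genes of PD-1 protein turnover, Klhl22, part of a ubiquitin ligase for PD-1, had 6 and 16 UMIs (ratio 3.79, 1.41 to 11.8), and Fut8, which fucosylates PD-1, had 29 and 12 UMIs (ratio 0.588, 0.273 to 1.19).

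Of the classes, mature regulatory DC-like cells had the highest Cd274, and it was counted in every immune class. Those DC-like cells had 279 CPM in vehicle (237 to 326) and 334 CPM in LC427 (284 to 389). Conventional DC-like cells followed with 114 and 106 CPM, and monocyte/macrophage-like cells with 95.8 and 105 CPM, and the intervals of these 2 classes overlap. NK-like cells had 41.5 and 42.6 CPM, and CD8-like cells had 55 and 26 UMIs (ratio 0.672, 0.404 to 1.09). Neither ligand was past 1.5-fold in NK-like cells, where 24.5% of 6409 genes were higher and 16.2% lower, but Pdcd1lg2 (log2 ratio -0.58) was past it relative to the median of all genes there (-0.74). Monocyte/macrophage-like cells, 69.6% of all cells in vehicle and 69.1% in LC427, held 75.4% of all Cd274 UMIs in vehicle and 71.9% in LC427.

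For the classes as a whole, Cd274 was close in vehicle and LC427. In mature regulatory DC-like cells the ratio was 1.20 (0.955 to 1.5), in conventional DC-like cells 0.930 (0.648 to 1.34; there 16.7% of 5728 genes were higher and 9.72% lower), and in monocyte/macrophage-like cells 1.09 (1.01 to 1.18). In the last, 11.1% of the 11613 genes measured were higher by 1.5-fold or more and 6.29% lower, and their median log2 ratio was 0.14. Relative to that median Cd274 stood at -0.01, and divided by it the ratio was 0.993.

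The single value for monocyte/macrophage-like cells hid differences between its clusters. In the cluster led by the monocyte genes Plac8, Ly6c2 and Ly6i, Cd274 was 291 CPM in vehicle (386 UMIs) and 198 CPM in LC427 (382 UMIs), a ratio of 0.678 (0.587 to 0.784). Counted at equal depth its ratio was 0.852 (0.674 to 1.08). In the cluster led by Cxcl9, an interferon-gamma-induced chemokine, it was 140 and 94.9 CPM (0.676, 0.534 to 0.865), but 1.12 (0.641 to 2.1) at equal depth. A cluster led by the nuclear RNAs Neat1 and Malat1 had 207 and 113 CPM (0.547, 0.309 to 0.94), and 0.653 (0.313 to 1.33) at equal depth. In all 3 the interval lies below 1 on the summed UMIs and includes 1 at equal depth. In the other 6 clusters the interval of the ratio includes 1, among them the cluster led by the interferon genes Rsad2, Ifit2 and Ifit1, with 278 and 248 CPM. The cells were divided differently over the clusters: the Plac8 cluster took up 13.3% of the class in vehicle but 26.1% in LC427, and the Cxcl9 cluster 4.26% and 28.2%. With every cluster given the same weight in both libraries, the ratio was 0.797, on the other side of 1 from the 1.09 of the summed cells.

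**Figure D3:**
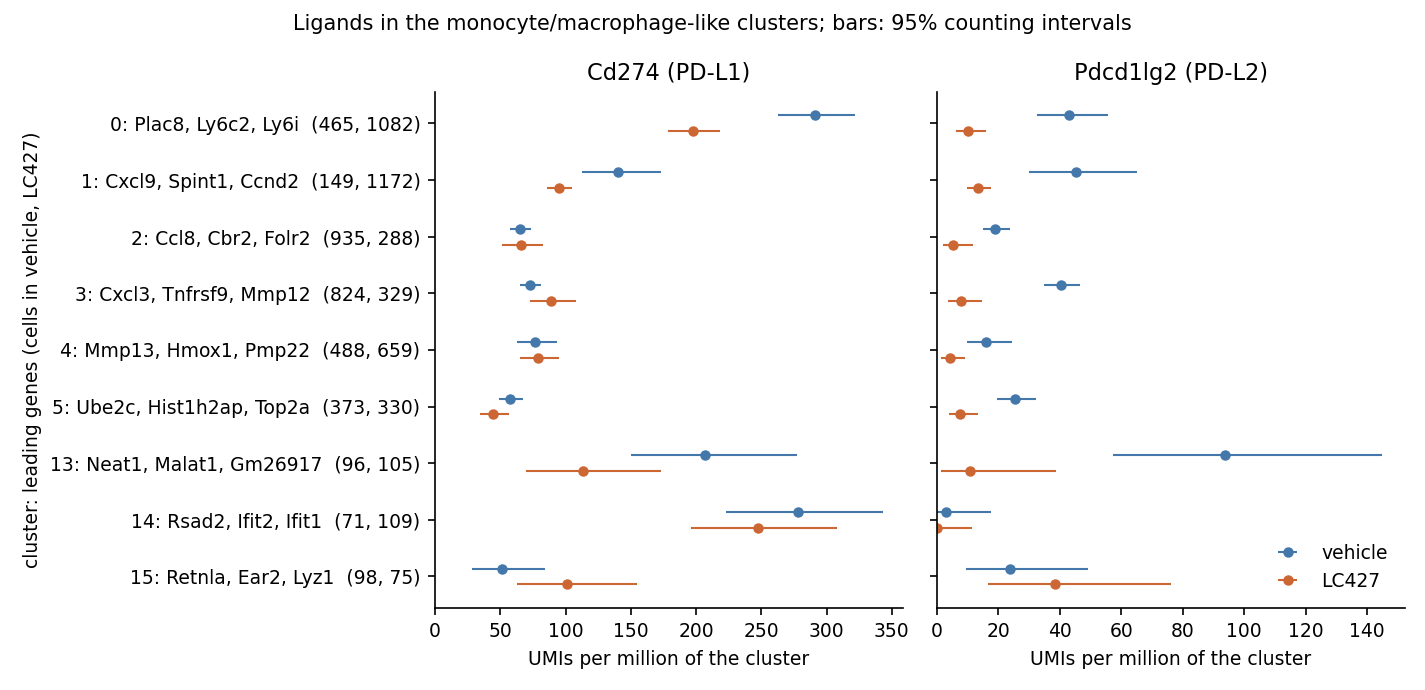
Level of Cd274 (left) and Pdcd1lg2 (right) in the 9 monocyte/macrophage-like clusters (CPM of the cluster, x axes), named on the y axis by number, by the genes that lead them within the class, and by cells in vehicle and LC427. Bars are exact 95% Poisson intervals. The LC427 point of Pdcd1lg2 is left of the vehicle point in 8 of 9 clusters, while for Cd274 it is left in 5 of 9.

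The genes that carry interferon-gamma signals to the Cd274 promoter were near their vehicle level in monocyte/macrophage-like cells. The 13 genes listed for this route run from the receptor chains through JAK1 and JAK2 to IRF1, and include the inhibitors Socs1, Socs3 and Ptpn2. None of the 13 was higher or lower by 1.5-fold, and their median log2 ratio was 0.08. With equal cluster weights 1 of them, the feedback inhibitor Socs1, was lower (0.598). Of 9 other regulators of PD-L1 transcription, Bcl3, an NF-kB cofactor, was lower (16.4 and 10.2 CPM, ratio 0.623, 0.497 to 0.778) and none was higher. All 13 genes of PD-L1 protein turnover, such as the stabiliser Cmtm6, stayed within 1.5-fold. The alternative partners were close too: Cd80 stood at 27.0 and 30.2 CPM (ratio 1.12, 0.968 to 1.29) and Rgmb at 16.4 and 20.9 CPM (1.27, 1.06 to 1.52). In mature regulatory DC-like cells, where 17.0% of 4934 genes were higher and 10.9% lower, the interferon-gamma route had 3 genes higher and 1 lower of 13, with Stat2 (24.9 and 60.1 CPM, ratio 2.42, 1.24 to 4.95) and Ifngr1 (94.1 and 145 CPM, ratio 1.54, 1.06 to 2.25). After division by the median of all genes 1 of the 13 was higher there, and Ifngr1 was within 1.5-fold.

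No cluster could be called tumour cells on its markers. The bead selection favours CD45, the product of Ptprc, and 1 cluster of 179 vehicle and 356 LC427 cells had a Ptprc UMI in only 5.79% of its cells. It was led by Ly6c1 and Tm4sf1. Of the 9 tumour markers listed, Tm4sf1, Sox9 and Ankrd1 were found in over 70% of its cells in each library, but these had been taken from earlier results of these data. The epithelial markers Krt18, Krt19, Cldn4 and Cldn7 were at 0 UMIs and Krt8 and Epcam at 2 or fewer. Of the 7 fibroblast markers, 6 were in at least 10% of its cells in each library, but unevenly. Col3a1 and Col1a2 stood at 857 and 237 CPM in vehicle. Col1a1 was in only 14.5% of vehicle and 12.9% of LC427 cells, Pdgfra was at 14.5 and 12.6 CPM, and Lum had 1 and 0 UMIs. It is called here the Ptprc-poor cluster. As a share of its UMIs Cd274 was low in it, at 8.49 CPM (5.88 to 11.9) in vehicle and 7.76 CPM (5.4 to 10.8) in LC427 (ratio 0.914, 0.554 to 1.51). On that measure it was below every immune class. Its cells were deep, with medians of 20692 and 11008 UMIs, and 12.8% and 7.87% of them held a Cd274 UMI. In CD8-like cells these shares were 14.2% and 4.64%, at medians of 3315 and 1729.5 UMIs. In the Ptprc-poor cluster Pdcd1lg2 gave 1 UMI in vehicle and 0 in LC427, where 0 of 356 cells allows a share of up to 0.843%. Of the 13 genes of the interferon-gamma route, 4 were lower there in LC427 and none higher (8.57% of 10909 genes were higher and 10.6% lower), among them Irf1, which acts on the Cd274 promoter, at 106 and 60.5 CPM (ratio 0.570, 0.488 to 0.665).

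Pdcd1lg2 was the ligand that differed by more than 1.5-fold between the libraries beyond counting error, and it did so in monocyte/macrophage-like cells. There 463 UMIs were counted in 3499 vehicle cells and 114 in 4149 LC427 cells. The level was 30.1 CPM (27.4 to 32.9) in vehicle and 9.76 CPM (8.05 to 11.7) in LC427, and the ratio was 0.325 (0.262 to 0.399). On the log2 scale this was -1.62, or -1.76 relative to the median of all genes, and 0.551% of the 11613 genes ranked at or below it. At equal depth, a Pdcd1lg2 UMI was found in 2.40% (1.92 to 2.96) of the vehicle cells and in 0.844% (0.588 to 1.17) of those from LC427. Unthinned, the shares were 9.26% and 2.43%.

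The lower level was shared by most of the class. It was below the vehicle level in 8 of the 9 clusters, and in 7 the interval of the ratio lies below 1. In the cluster led by Cxcl3, Tnfrsf9 and Mmp12, which held the most Pdcd1lg2 UMIs in vehicle (182), it was 40.5 CPM in vehicle and 7.84 CPM in LC427 (ratio 0.194, 0.0872 to 0.376). The Plac8 cluster had 43.0 and 10.4 CPM (0.241, 0.137 to 0.407), the Cxcl9 cluster 45.2 and 13.4 CPM (0.296, 0.183 to 0.488), and a cluster led by the division genes Ube2c and Top2a 25.4 and 7.77 CPM (0.305, 0.15 to 0.569). The cluster led by Ccl8, Cbr2 and Folr2 had less, 19.1 and 5.46 CPM (0.286, 0.102 to 0.649). The exception was the small cluster led by Retnla, Ear2 and Lyz1, with 7 UMIs in vehicle and 8 in LC427 (ratio 1.62, 0.512 to 5.23). The interferon cluster led by Rsad2 had 1 and 0 UMIs, although its Cd274 was among the highest. At equal depth the ratios of the Cxcl3, Plac8 and Cxcl9 clusters were 0.114, 0.271 and 0.268. With the cluster weights held equal, the ratio of the class was 0.268.

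Free RNA was measured in empty droplets. Droplets of 10 to 100 UMIs had 27.9 CPM of Pdcd1lg2 in vehicle and 17.5 CPM in LC427, near or above the level of the cells themselves. They averaged 54.4 and 41.6 UMIs each. If every cell held that much free RNA, it would give 5.31 of the 463 vehicle UMIs and 3.02 of the 114 LC427 UMIs; the true amount per cell was not measured.

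In the dendritic classes a difference was not resolved. Mature regulatory DC-like cells had the highest Pdcd1lg2 of all, 112 CPM (86.0 to 143) in vehicle and 82.9 CPM (59.2 to 113) in LC427 (ratio 0.741, 0.486 to 1.12). At equal depth their shares were 7.46% and 9.26%, and the ratio of the thinned UMIs was 1.32, in the other direction, so a difference was not detectable. Conventional DC-like cells had 31.1 CPM (15 UMIs) and 42.4 CPM (30 UMIs), with a ratio of 1.36 (0.711 to 2.73). Under other settings it ran from 0.825 to 2.56 and was below 1 in 2 of 10, so its direction is not resolved. The interval of the ratio in monocyte/macrophage-like cells overlaps neither of these, but whether the classes differ was not tested, since there was 1 library a group.

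Lymphocytes also held Pdcd1lg2. CD8-like cells had 35.8 CPM (53 UMIs) in vehicle and 25.9 CPM (27 UMIs) in LC427, and NK-like cells 37.3 CPM (53 UMIs) and 24.9 CPM (7 UMIs), with ratios of 0.724 (0.438 to 1.17) and 0.667 (0.256 to 1.47). In vehicle the intervals of both overlap that of the macrophage-like cells. In LC427 the interval of CD8-like cells (17.1 to 37.7) lies above the 8.05 to 11.7 of the macrophage-like cells, and that of NK-like cells (10.0 to 51.2) overlaps it. If every cell held as much free RNA as an average empty droplet, it would give 0.522 UMIs or fewer in each of these cases. The true amount per cell was not measured, so this is not an upper bound. The 13 monocyte/macrophage markers summed to 637 CPM in vehicle CD8-like cells and 15697 CPM in macrophage-like cells, and the part of macrophage RNA in these counts was not tested.

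With Pdcd1lg2 lower and Cd274 close, the mix of the ligands differed. Pdcd1lg2 made up 23.9% (22.0 to 25.9) of the vehicle ligand UMIs of monocyte/macrophage-like cells and 8.54% (7.10 to 10.2) of those of LC427. In the Cxcl3 cluster it made up 35.6% and 8.11%. In mature regulatory DC-like cells it was 28.6% (22.8 to 35.1) and 19.9% (14.6 to 26.1), and in conventional DC-like cells 21.4% and 28.6%. Pdcd1lg2 was more often found in cells with Cd274 than in cells without: among vehicle monocyte/macrophage-like cells, 14.2% (11.9 to 16.6) of those with a Cd274 UMI also had Pdcd1lg2, against 7.62% (6.64 to 8.71) of the others. In LC427 the shares were 3.80% and 2.09%. Cells with Cd274 were also deeper, with medians of 4756.5 and 3235 UMIs in vehicle, so the part of depth in that pairing was not tested.

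The upstream genes of the IL-4 route to PD-L2 were near their vehicle level in monocyte/macrophage-like cells, while most of the listed target genes of STAT6, the factor that route activates, were lower. The 9 genes listed for the route run from Il4ra and Il13ra1 to Stat6 and Irf4, and also include the GM-CSF receptor chains Csf2ra and Csf2rb. None of the 9 was higher or lower by 1.5-fold (median log2 ratio 0.08), and 1 was lower after division by the median of all genes. Of the 12 STAT6 targets, 9 were lower and none higher (beside the 6.29% of all genes that were lower), with a median of -0.76 against 0.14 for all genes. The list was chosen with earlier results of these data known, so this count is a description and not independent evidence about the route. Ccl24, an eosinophil-attracting chemokine, was at 113 and 10.4 CPM (ratio 0.0915, 0.0754 to 0.110). Retnla, a secreted protein of alternatively activated macrophages, was at 201 and 88.6 CPM (0.441, 0.411 to 0.473). Chil3, a chitinase-like protein, was at 190 and 87.1 CPM (0.459, 0.427 to 0.493), and Mrc1, the mannose receptor, at 555 and 313 CPM (0.564, 0.542 to 0.586). With equal cluster weights 6 of the 12 were lower by 1.5-fold, Ccl24 (0.0676), Retnla (0.454) and Chil3 (0.530) among them, while Mrc1 (0.767) was not. Divided by the median of all genes, 9 remained lower by count, while over all genes that division turned the split of 1287 higher and 731 lower into 740 and 1114. In mature regulatory DC-like cells, where Pdcd1lg2 was not resolved, 2 of 8 measured targets were higher and 2 lower, with Ccl17, a T-cell-attracting chemokine, at 1227 and 1884 CPM (1.54, 1.39 to 1.7; within 1.5-fold after division by the median) and Cish, a feedback inhibitor, at 83.5 and 39.4 CPM (0.472, 0.261 to 0.819).

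**Figure D4:**
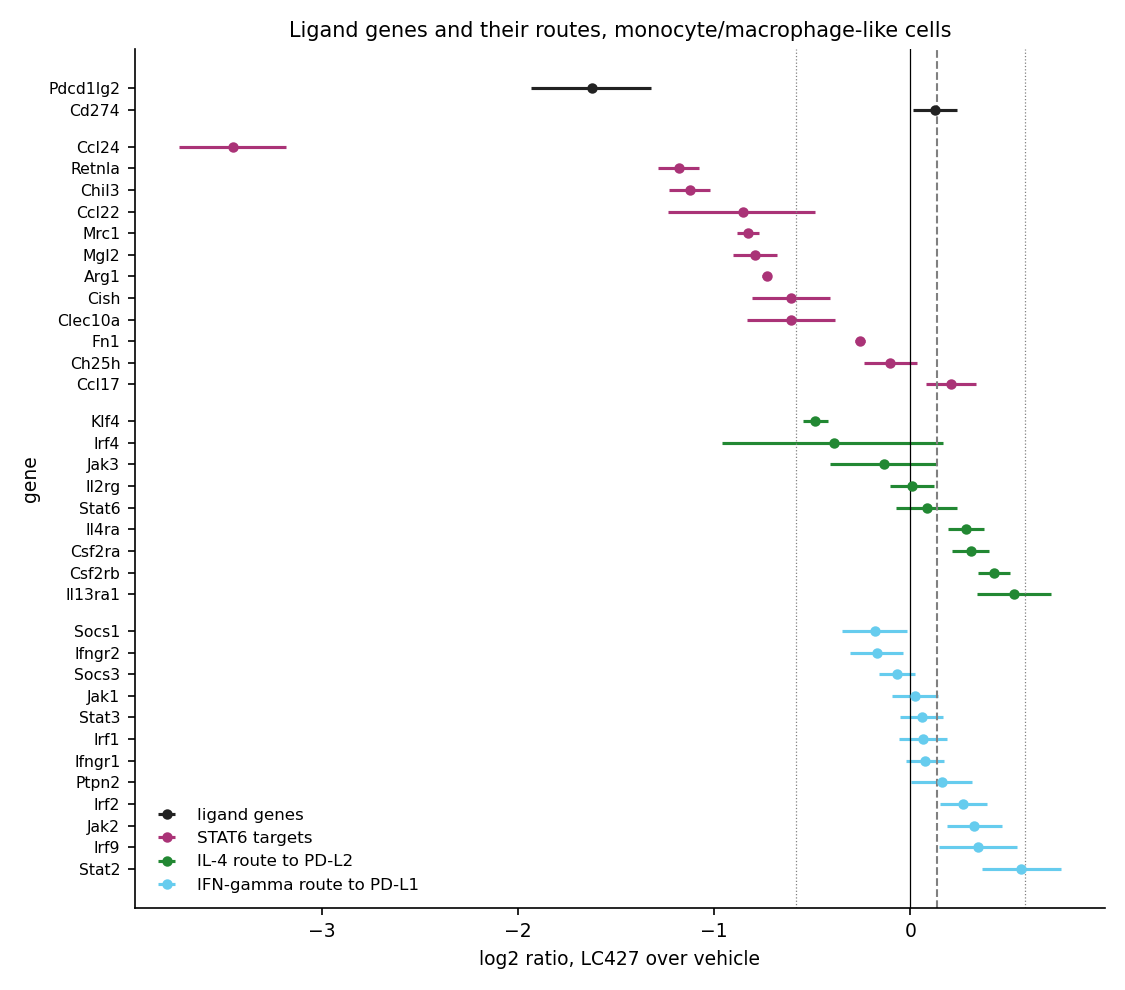
Log2 ratio of LC427 over vehicle (x axis) in monocyte/macrophage-like cells for the ligand genes, 12 STAT6 targets, 9 genes of the IL-4 route and 12 of the 13 of the interferon-gamma route (y axis). Bars are exact 95% intervals for counting error, dotted lines mark 1.5-fold and the dashed line the median of all genes (0.14). Pdcd1lg2 (-1.62) lies with the 9 lower STAT6 targets, and the plotted genes of both routes lie between the dotted lines. The lists were chosen with earlier results of these data known.

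The 250 bases before the Pdcd1lg2 start (RefSeq, GRCm38.p6, chr19:29410669-29410918, plus strand) are shown, with the only searched motif found there in capitals. Whether STAT6 had a part in the Pdcd1lg2 level was not tested.

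Pdcd1lg2: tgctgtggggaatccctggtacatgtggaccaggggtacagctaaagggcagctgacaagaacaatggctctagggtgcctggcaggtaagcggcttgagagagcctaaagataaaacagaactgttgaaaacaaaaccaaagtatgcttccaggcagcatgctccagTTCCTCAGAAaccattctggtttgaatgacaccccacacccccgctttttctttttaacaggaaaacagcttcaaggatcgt

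The capitals are TTC and GAA with any 4 bases between, the spacing that STAT6 prefers, and begin 82 bases before the start. This motif occurs on either strand in 5.85% of 32851 mouse promoter windows of this length. With 5 motifs searched, a match to any of them is more common than that. The interferon core, GAAA and GAAA with any 2 bases between (2.98% of windows), the general STAT core, TTC and GAA with any 3 between (7.02%), the AP-1 motif TGANTCA (6.75%) and the E-box CACGTG (6.02%) were also searched on both strands and are not in this window. None of the 5 was found in the 250 bases before Pdcd1. Annotated exons cover 185 of the 250 bases before Cd274, and the longest stretch outside them, the 47 bases next to the start, holds none. A match of letters is a description and does not show binding.

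The 5 genes whose level over 8 classes in both libraries (16 points) was most like that of Pdcd1 were Cxcr6, a chemokine receptor of tissue T cells (Pearson r 0.976), Cd8b1, Cd3e, Themis and Trac, among 11259 genes. For Cd274 they were Ikbkb, a kinase that activates NF-kB (0.944), Vav3, Synj1, Pik3r5 and Sppl2a. For Pdcd1lg2 they were Sh3bp1 (0.922), the myeloid factor gene Irf8 (0.916), Tmsb4x, Fau and Myl6. The points share libraries, and Cd8b1, Cd3e and Trac were also used to name classes.

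In the authors' deposited table of cluster means, made for each library apart, Pdcd1 was highest in cluster 11 of 13 in vehicle (0.338) and cluster 9 of 11 in LC427 (0.240), the clusters with the highest Cd8a. In the authors' deposited table Pdcd1lg2 was highest in cluster 13 of vehicle (0.301) and in cluster 7 of LC427 (0.120), which also had the highest Cd274 (0.963 and 0.443). Cluster 7 of LC427 was the one highest in Ccr7 in the authors' deposited table, whereas in vehicle cluster 12 was highest in Ccr7 and ranked after cluster 13 for both ligands. The tables were scaled to different totals, so their values are not compared across libraries.

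**Figure D5:**
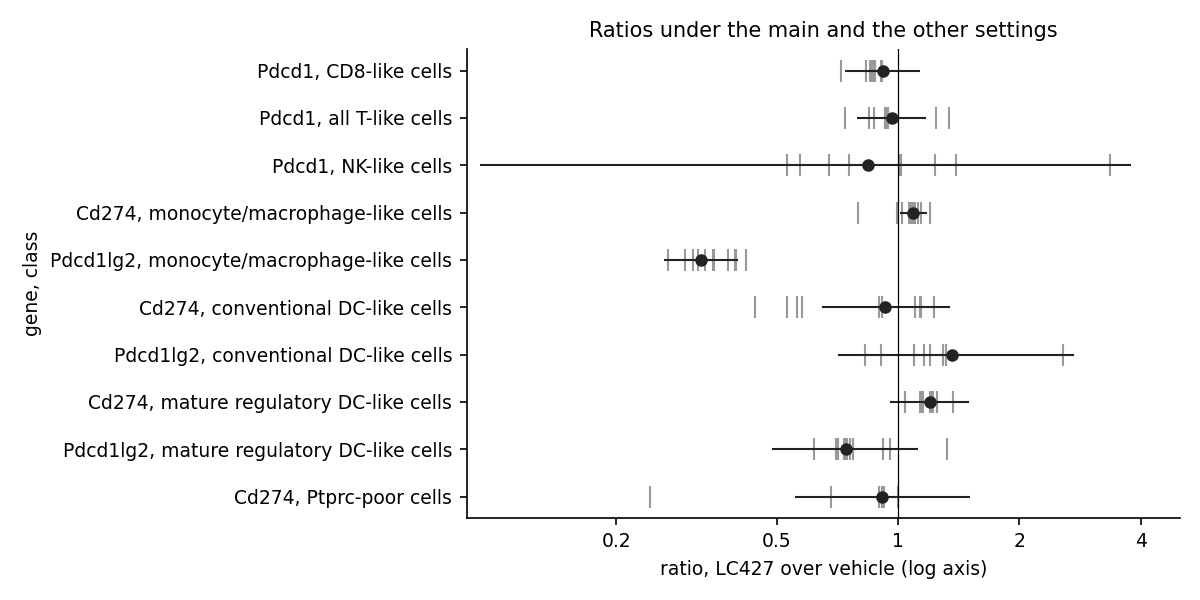
Ratio of LC427 over vehicle (x axis, log scale) for 10 gene and class pairs (y axis). Dots with bars are the reported ratios with exact 95% counting intervals, and grey marks are the ratios under other settings. Pdcd1lg2 in monocyte/macrophage-like cells lies between 0.268 and 0.419 under every other setting run, and the marks of Cd274 in the same cells lie on both sides of 1.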

How the data were processed

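For each library the deposited files are a matrix of raw UMI counts, with empty droplets and 32285 genes, and a table of mean counts per cluster, a signal scaled by the authors to 1 total per library. Cell Ranger 3.0.1, Seurat 3 and GRCm38 are named in the submitters' processing notes, while per the file headers the matrices came from Cell Ranger 4. From the deposited counts, barcodes with at least 1000 UMIs, 400 genes and at most 10% mitochondrial UMIs were kept as cells (5245 in vehicle and 6328 in LC427, before doublets). Probable doublets, 220 and 320, were removed by similarity to simulated pairs. Counts were log-normalised and 2000 variable genes gave 30 components, a graph of 20 neighbours and Leiden clusters at resolution 1 (leidenalg 0.10.2, seed 1). The 3 genes and the pathway lists were kept out of the variable genes. List genes that are also markers, such as Cd3e, Cd247 and Lck, could enter. T and NK clusters were clustered again. Names rest on listed markers. Library totals were 33711726 UMIs in vehicle and 28732435 in LC427.

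UMIs were summed per class and library. CPM carry exact Poisson 95% intervals, ratios exact conditional binomial intervals, and shares Clopper-Pearson intervals (scipy 1.17.1). A count of 0 allows up to 3 counts. Genes with at least 20 UMIs over both libraries entered counts of genes 1.5-fold higher or lower, and log2 ratios were computed from the deposited counts. The intervals were run only on simulated Poisson counts, the model they assume. UMIs gathered in single cells were not simulated, so how well the intervals hold for real cells was not tested. Promoters and motifs came from RefSeq. Of each pathway list, up to 4 genes a class at 1.5-fold or more were named, ranked by the bound nearest 1, and binding partners always. The 3 genes, lists and markers were chosen with earlier results of these data known. Other settings tried were cell, mitochondrial and doublet cutoffs, resolution, separate clustering, thinning, median scaling, gating by markers and, chosen after seeing the data, equal cluster weights, mixed barcodes counted as T-like, and DC-like cells without T markers. Of the interferon-gamma list, 1 gene is counted but not reported here by name.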

Additional observations from a re-analysis of the deposited data

How the results depend on the processing

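Each library is the sole one of its group, so animals, sort and treatment cannot be told apart, and counts under about 20 UMIs leave wide intervals. No paired analysis was possible because each group holds 1 library. Pdcd1lg2 in monocyte/macrophage-like cells kept its direction under all 11 other settings (0.268 to 0.419, the latter with at least 2000 UMIs a cell), and Pdcd1 in CD8-like cells stayed below 1 under all 10, at 0.723 when cells were gated by their own marker UMIs. Pdcd1 over all T-like cells was 1.24 with doublets kept, 1.34 with each library clustered alone and 0.739 with mixed barcodes counted. Cd274 in monocyte/macrophage-like cells was 1.20 thinned, 0.993 divided by the median of all genes and 0.797 with equal cluster weights. Cd274 in conventional DC-like cells was 0.562 at 2000 UMIs, 0.531 at 5% mitochondrial UMIs, 0.442 at resolution 2 and 0.578 gated, with under 80 cells a library each time. Pdcd1lg2 in mature regulatory DC-like cells was 1.32 thinned, and 0.954 in cells without a T marker. Cd274 in the Ptprc-poor cluster was 0.243 when gated, from 24 and 96 cells. Apart from the equal weights, which change the share of clusters, the cause of these shifts was not tested. Counting genes with at least 1 UMI, CD8-like cells had 3264 higher and 2225 lower, mature regulatory DC-like cells 3643 and 2515, and monocyte/macrophage-like cells 3403 and 2445, where fewer counts a gene give larger ratios. Divided by the median, monocyte/macrophage-like cells had 740 higher and 1114 lower. No ratio came from Pdcd1 in NK-like cells at 2000 UMIs or from the thinned Cd274 of the Ptprc-poor cluster, each with a library at 0.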

Other observations

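CD8-like cells with and without a Pdcd1 UMI were set side by side for 6 genes chosen by hand, with earlier results of these data known. In vehicle, Ifng, the gene of interferon-gamma, was at 514 CPM (463 to 568) in the 131 cells with a Pdcd1 UMI and at 254 CPM (219 to 293) in the 213 without. In LC427 the order was the other way, 226 CPM (176 to 286) in 108 cells and 397 CPM (353 to 445) in 366. Mki67, a proliferation gene, was at 272 and 457 CPM in vehicle and at 363 and 283 CPM in LC427. Tcf7, a gene of stem-like T cells, was at 21.7 CPM (12.4 to 35.3) in cells with Pdcd1 and 41.7 CPM (28.3 to 59.2) in those without in vehicle, and at 6.55 CPM (0.793 to 23.6, 2 UMIs) and 31.3 CPM (19.8 to 46.9) in LC427, with intervals that overlap in both libraries. Tox, a factor of exhausted T cells, was at 61.1 and 45.7 CPM in vehicle and 58.9 and 85.7 CPM in LC427, and Cd8a at 622 and 421 CPM and at 638 and 514 CPM. Lag3, another inhibitory receptor, was at 486 and 417 CPM in vehicle and 435 and 455 CPM in LC427. Cells with a Pdcd1 UMI were deeper in both libraries (medians of 4307 and 2711 UMIs in vehicle and 2049.5 and 1663 in LC427). The difference between libraries was not tested, and a few cells can hold many Ifng UMIs, which the counting intervals do not cover.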
